A study of Mus musculus with 6 samples.

Results

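The Mir23a-27a-24-2 cluster is a set of 3 neighbouring microRNA genes, Mir23a, Mir27a and Mir24-2, that were found among the 9822 genes counted in purified mouse platelets. The 3 genes were matched to the deposited rows by their Entrez identifiers (387216, 387220 and 723960), and all 3 have a row in every library. They were chosen by their lower counts in mutant than in wild-type libraries, so the difference between genotypes in these genes is described below with no test and supports nothing. PolyA RNA was sequenced from 3 pools of platelets of males heterozygous for the C587R change in Nxf1 (Nxf1+/C587R), the gene of the main mRNA export receptor, and from 3 pools of wild-type littermate males. All mice had the BALB/c background, over 98% of the flow cytometry events of each pooled suspension carried the platelet marker CD41, and 1 pool of each genotype belonged to each of 3 preparation batches. The labels name no treatment, no age, no number of animals per pool and no Cre or transgene. The 3 wild-type libraries were also deposited in a second series, per the design text.

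A microRNA gene is transcribed as a long capped and polyadenylated primary transcript in which the microRNA lies in the stem of a hairpin. In the nucleus the Microprocessor, made of Drosha and Dgcr8, cuts the hairpin out, Xpo5 carries it to the cytoplasm, Dicer1 trims it to a short duplex, and 1 strand is loaded onto an Argonaute protein. The loaded strand pairs through its seed, bases 2 to 8, with sites in the 3′ UTRs of target mRNAs, which are then translated less and degraded sooner. The 3 genes of this cluster share 1 primary transcript, are expressed in blood cells and their progenitors, and each yields a microRNA of a different family. Platelets have no nucleus and receive their RNA from megakaryocytes. PolyA libraries do not hold the mature microRNAs, so the counts below stand for uncut primary transcript and say nothing of the level of the mature forms.

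The 3 mature 3p arms, the strands best known as active, are shown first because their seeds define the target sites that are examined further on (RefSeq, GRCm38.p6, 5′ to 3′, seed in capitals).
miR-23a-3p: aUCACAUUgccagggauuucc
miR-27a-3p: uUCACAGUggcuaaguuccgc
miR-24-3p: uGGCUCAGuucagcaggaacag
The seeds of miR-23a-3p and miR-27a-3p differ by a single substitution, U7G, counted from 1 at the 5′ end with the base of miR-23a-3p first. In the RefSeq table miR-27a-3p shares its seed with miR-27b-3p, from which it differs by C19U, and miR-24-3p is the same molecule as the product of Mir24-1. The product of Mir24-2 therefore cannot be told apart from that of Mir24-1 by its sequence, whereas the hairpin counts used here belong to Mir24-2. Counts of the paralogous cluster of Mir23b, Mir27b and Mir24-1 were not analysed here.

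The hairpins, which are the annotated genes whose reads were counted, are shown next because their lengths and spacing bear on those counts (3p arm in capitals).
Mir23a: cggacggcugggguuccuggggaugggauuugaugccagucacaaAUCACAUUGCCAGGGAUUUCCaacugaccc
Mir27a: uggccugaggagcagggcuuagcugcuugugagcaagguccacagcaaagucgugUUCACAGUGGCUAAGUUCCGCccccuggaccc
Mir24-2: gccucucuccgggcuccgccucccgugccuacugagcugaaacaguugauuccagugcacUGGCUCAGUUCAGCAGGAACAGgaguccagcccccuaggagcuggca
The Mir23a hairpin is 75 bases long, Mir27a 87 bases and Mir24-2 107 bases. Folding with RNAfold gave a minimum free energy of -32.6 kcal/mol with 29 base pairs for Mir23a, -36.6 kcal/mol with 31 for Mir27a and -49.0 kcal/mol with 36 for Mir24-2. All 3 were thus predicted to fold into a paired stem, and the longest hairpin has the most stable predicted fold.

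The cluster lies on the plus strand of chromosome 8 of mm10 (GRCm38), between protein-coding genes and inside none of them. Mir23a spans 84208518 to 84208592, Mir27a 84208672 to 84208758 and Mir24-2 84208815 to 84208921. The whole cluster covers 404 bases, with gaps of 79 bases between Mir23a and Mir27a and 56 bases between Mir27a and Mir24-2. Mir24-2 overlaps other annotation, since Mir3074-2 covers 83 of its bases on the opposite strand and the noncoding gene Gm26532, which begins at 84208920, covers its last 2 bases. The library kit does not mark strand, and the sources used here do not say how reads that touch more than 1 gene were treated, so the level of Mir24-2 is less certain than the others. For the same reason a fragment that reaches over 2 hairpins may have been counted for both or for neither, and the 3 counts are not independent measurements.

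All 3 genes had fewer counts in every mutant library than in any wild-type library. Mir23a had 48, 62 and 41 counts in the mutant libraries of batches 1, 2 and 3, and 111, 202 and 107 in the wild-type libraries. Mir27a had 50, 79 and 40 counts in the mutants and 139, 164 and 138 in the wild types. Mir24-2 had 9, 16 and 9 counts in the mutants and 35, 30 and 39 in the wild types. Batch 2 gave the highest mutant library for each of the 3 genes, and the highest wild-type library for Mir23a and Mir27a but not for Mir24-2. The deposited table holds only genes above a normalised level of 0.5 CPM (the count scaled to the library total) in at least 3 libraries. Mir23a and Mir27a pass that filter in all 6 libraries, but Mir24-2 passes it in 3 wild-type and only 1 mutant library, so its presence in the table rests on the group in which it is higher.

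Counts were scaled to CPM with TMM, edgeR's trimmed-mean scaling of library totals, and fold changes of mutant over wild type are on the log2 scale of the edgeR fit over all genes. Mir23a measured 1.79, 2.53 and 1.52 CPM in the mutant libraries and 4.29, 8.40 and 3.46 CPM in the wild-type libraries. Its group means were 1.95 ± 0.524 CPM (SD, n = 3) in mutants and 5.38 ± 2.65 CPM (SD, n = 3) in wild types, a log2 fold change of -1.46 ± 0.33 (SE). The wild-type library of batch 2 lay far above the other wild types, and without it the log2 fold change was -1.03.

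Mir27a measured 1.86, 3.23 and 1.48 CPM in the mutants and 5.37, 6.82 and 4.46 CPM in the wild types. Its means were 2.19 ± 0.916 and 5.55 ± 1.19 CPM (SD, n = 3 each), a log2 fold change of -1.34 ± 0.24 (SE). Mir24-2 measured 0.336, 0.653 and 0.334 CPM in the mutants and 1.35, 1.25 and 1.26 CPM in the wild types. The 3 wild-type values of Mir24-2 were nearly equal, while its mutant library of batch 2 stood well above the other mutants. Its means were 0.441 ± 0.184 and 1.29 ± 0.0577 CPM (SD, n = 3 each), a log2 fold change of -1.55 ± 0.31 (SE). The 3 fold changes differed from one another by less than their standard errors.

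Of all genes, 9.16% were called lower and 12.9% higher in mutants by the edgeR quasi-likelihood test at a Benjamini-Hochberg adjusted p of 0.05, and 15.9% had every mutant library below every wild-type library. Since the members were chosen by this contrast, nothing is read from their place among those genes. In the order of log2 fold changes from the lowest, Mir24-2 was 96th, Mir23a 113th and Mir27a 135th of 9822 genes. Directly beside Mir27a stood Hmga2 at -1.35 and the ribosomal protein gene Rps28 at -1.34.

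**Figure D1:**
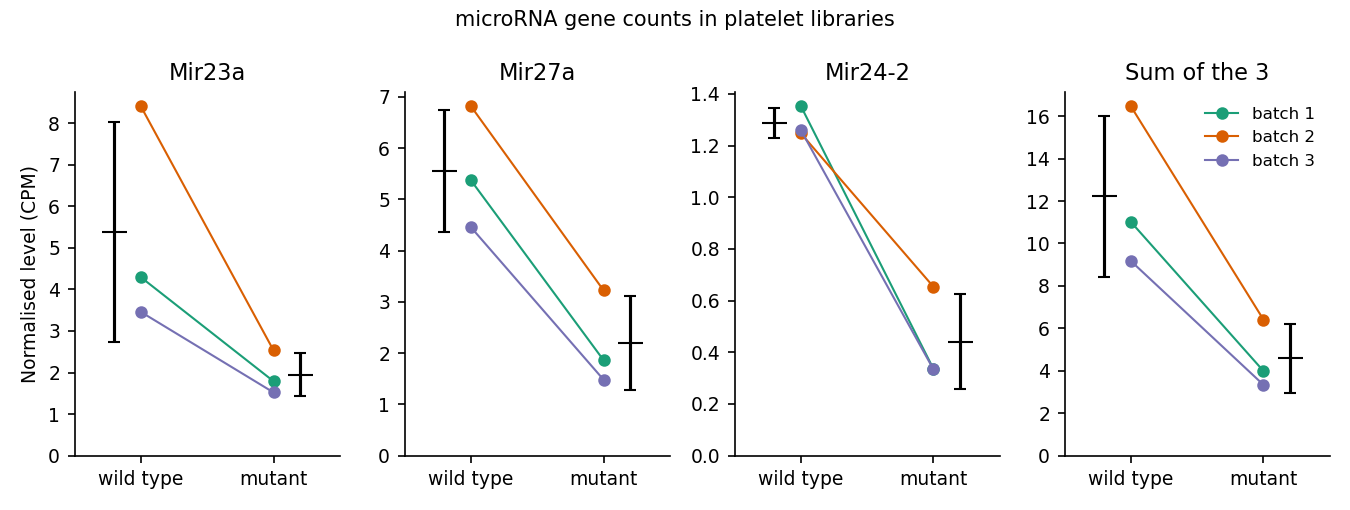
Normalised level (CPM, linear axes from 0) of Mir23a, Mir27a, Mir24-2 and their sum in each library; coloured points are libraries, lines join the wild-type and mutant library of a batch, and black bars show mean ± SD (n = 3). Every line falls, and the wild-type library of batch 2 stands at 8.40 CPM for Mir23a and 16.5 CPM for the sum.

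Adding the 3 genes gives a value with less counting error, because it rests on 90 to 157 counts in the mutant libraries and 284 to 396 in the wild-type libraries. Its level still varied between libraries, by 31.0% (SD over mean) in wild types and 35.4% in mutants. The sum was 3.99, 6.41 and 3.34 CPM in the mutants of batches 1, 2 and 3 and 11.0, 16.5 and 9.17 CPM in the wild types. The batches kept the same order in both genotypes, with batch 2 highest and batch 3 lowest. The mean of the sum was 4.58 ± 1.62 CPM in mutants and 12.2 ± 3.79 CPM in wild types (SD, n = 3 each), which is 2.67-fold lower in the mutants.

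Within batches, where 1 mutant library is set against its wild-type partner, the log2 ratio of the sum was -1.47, -1.36 and -1.46 in batches 1, 2 and 3, with counting errors of 0.16, 0.14 and 0.17. The 3 ratios thus differed by no more than counting error allows, although the levels themselves differed between batches. The single genes spread more widely. Mir23a had ratios of -1.26, -1.73 and -1.18, Mir27a of -1.53, -1.08 and -1.59, and Mir24-2 of -2.01, -0.93 and -1.92. In batch 2 Mir23a thus showed its strongest difference while Mir27a and Mir24-2 showed their weakest. The ratios of Mir24-2 carry counting errors of 0.54, 0.45 and 0.53, the largest of the 3 genes.

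The spread of libraries within a genotype was compared with the spread that counting alone would give. Mir23a varied by 49.2% (SD over mean) among wild types, against 8.45% from counting alone, and Mir27a by 21.5% against 8.25%. Both spreads were wider than counting error, which takes no account of differences between pools. Mir24-2 varied by 4.48% among wild types against 17.0% from counting, so its near equality there is closer than counting alone usually leaves. Among mutants the 3 genes varied by 26.9%, 41.8% and 41.7%, against 14.1%, 13.3% and 29.7% from counting.

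The balance between the hairpins was compared as the share of each in their joint count, a measure that does not depend on the scaling of the libraries. Mir27a and Mir23a made up nearly all of the joint count in both genotypes and Mir24-2 the small remainder. The mean share of Mir23a was 43.3 ± 3.32% in mutants and 42.5 ± 7.36% in wild types (SD, n = 3 each), and that of Mir27a was 47.2 ± 2.96% and 46.3 ± 4.20%. Mir24-2 took 9.53 ± 0.977% in mutants and 11.2 ± 3.22% in wild types. For each gene the mean shares of the genotypes differed by less than the SD of the wild-type libraries, and the shares of both genotypes overlapped.

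The exception to the common balance was the wild-type library of batch 2. There Mir23a took 51.0% of the joint count (exact Clopper-Pearson 95% interval 46.0 to 56.0%), against 38.9% (33.3 to 44.9%) and 37.7% (32.0 to 43.6%) in the wild types of batches 1 and 3. Mir23a was counted 1.23 times as often as Mir27a in that library, and 0.799 and 0.775 times as often in the other wild types. In the mutants the same ratio was 0.960, 0.785 and 1.02 (batches 1, 2 and 3), so the mutant library of batch 2 did not share the excess of Mir23a. The intervals cover counting error only.

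**Figure D2:**
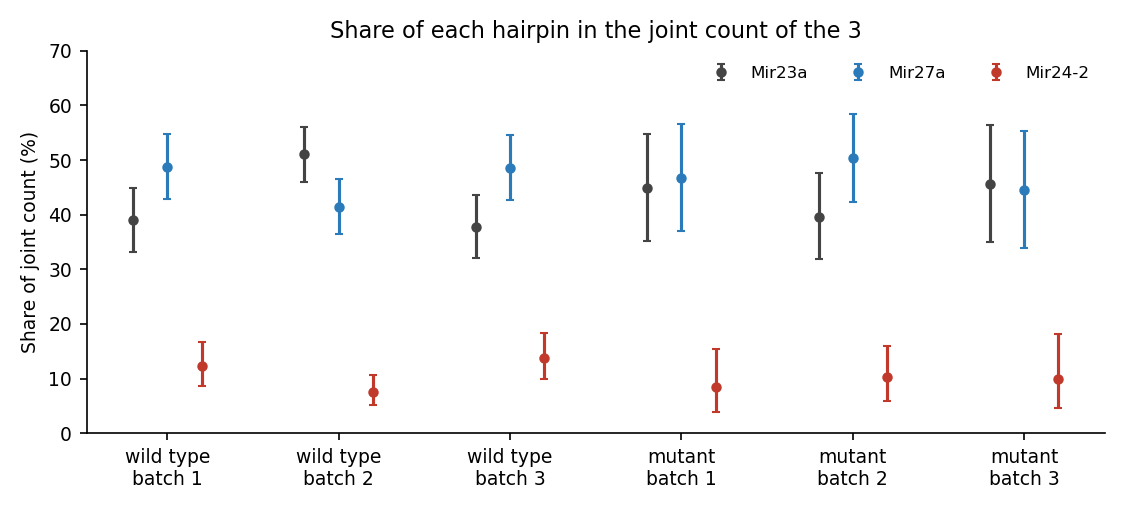
Share of each hairpin in the joint count of Mir23a, Mir27a and Mir24-2 (percent, axis from 0) in each of the 6 libraries, with exact 95% intervals. The intervals of Mir23a and Mir27a overlap in every library, and Mir24-2 stays between 7.58% and 13.7% of the joint count.

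Per base of annotated hairpin, the members stood in an order that both genotypes shared. In wild types the level was 71.7 ± 35.3 CPM per kb for Mir23a, 63.8 ± 13.7 for Mir27a and 12.02 ± 0.539 for Mir24-2 (SD, n = 3 each). In mutants it was 26.0 ± 6.99, 25.2 ± 10.5 and 4.12 ± 1.72 CPM per kb. Mir23a and Mir27a did not differ beyond their spread in either genotype, and Mir24-2 lay below both. These values divide by hairpins that are shorter than usual library fragments, so they order the members but are no level of the primary transcript.

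The members were next set beside the rest of the table, as a description. Of the 3639 other genes whose mean CPM lies between those of the members, 6.54% were called lower and 4.09% higher, and 1.10% had a log2 fold change as low as that of Mir27a, the weakest of the 3. The same share was 17.7% (41 of 232) among long noncoding RNA genes and 13.3% (2 of 15) among other genes of at most 150 bases. Long noncoding RNA genes, a class that the members resemble in being transcribed without a protein product, were often lower. Of 232 such genes, 114 (49.1%) were called lower and 10 higher, with a median log2 fold change of -0.56, while 7.26% of 9107 protein-coding genes were called lower. Among the 15 other genes of at most 150 bases, 8 were called lower, with a median of -0.54 against -0.04 over all genes. Some of these short genes, such as Mir339 and Iglj3, lay below 0.5 CPM in every mutant library and above it in every wild-type library. Their presence in the table thus favoured a lower call. The members were chosen by their fall, so nothing is read from their place among these classes.

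**Figure D3:**
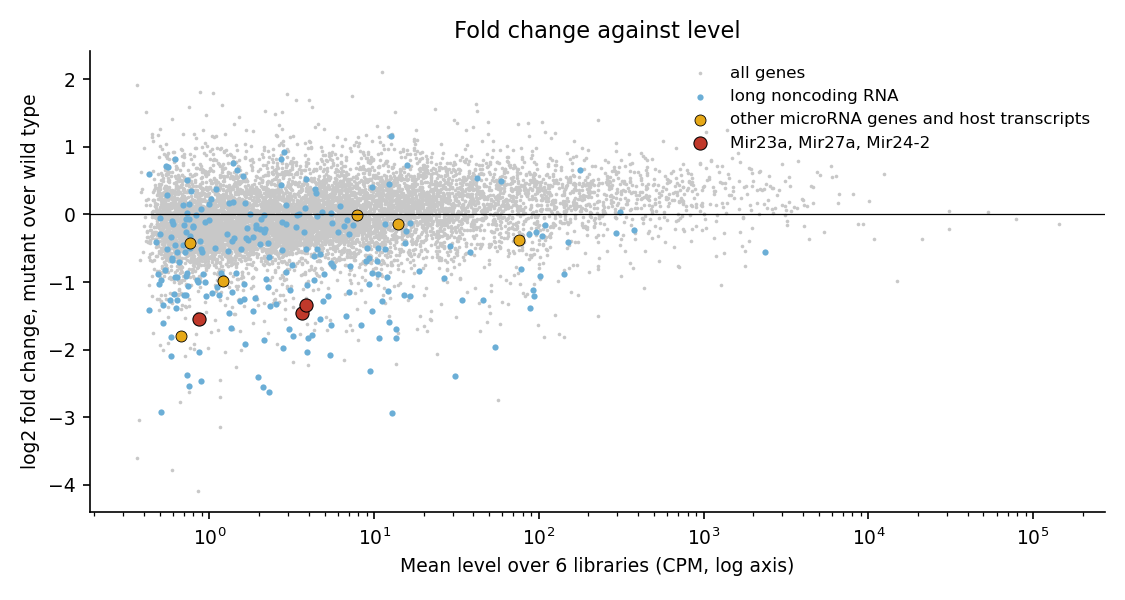
log2 fold change of mutant over wild type against mean level (CPM over 6 libraries, log axis) for all 9822 genes, with long noncoding RNA genes in blue, other microRNA genes and microRNA host transcripts in yellow and the 3 members in red. The members lie between -1.34 and -1.55, at levels where most genes scatter around 0 and many long noncoding RNA genes lie below it.

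Of the 6 other rows named as microRNA genes or as their noncoding host transcripts, 3 were called lower and none higher by edgeR, with a median log2 fold change of -0.40. Of all genes 9.16% were called lower and 12.9% higher. Among the other genes of at most 150 bases 53.3% were called lower, but these include Mir339, Mir703, Mir682 and Mir1938 themselves. None of the 6 rows was higher at an unadjusted p of 0.05, by DESeq2 or by limma-voom either. Mir339 measured 0.410, 0.286 and 0.185 CPM in the mutants and 1.04, 1.25 and 0.840 CPM in the wild types. Its log2 fold change was -1.80 ± 0.35 (SE; edgeR adjusted p = 0.000839), without overlap between the genotypes. It exceeded the filter of the deposited table in wild-type libraries only, so its presence in the table favoured a lower call. Mir339 lies in an intron of the tested gene 3110082I17Rik, and reads from that intron cannot be told apart from its own. The gene 3110082I17Rik itself was not called, with a log2 fold change of 0.48 ± 0.23 (SE; edgeR adjusted p = 0.152). Mir703, which lies within Cfap299, was lower by a log2 fold change of -0.99 ± 0.26 (edgeR adjusted p = 0.00818).

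Mir682, which overlaps Gm4149, had far more counts, at 65.4 ± 3.73 CPM in mutants and 85.3 ± 7.32 CPM in wild types. Its difference was smaller, -0.38 on the log2 scale (edgeR adjusted p = 0.0194). Its call was lost without mutant replicate 1 (edgeR adjusted p = 0.0598), mutant replicate 3 (0.0745), wild-type replicate 2 (0.0778) or both libraries of batch 1 (0.127). It was kept with the batch as a block (1.96e-07). Mir99ahg, the host transcript of a microRNA cluster, was at -0.14 on that scale (edgeR adjusted p = 0.519), Mir22hg, the host of miR-22, at -0.01 (0.989), and Mir1938, which overlaps Ifrd1, at -0.42 (0.376). Whether the short microRNA genes and the host transcripts differ in their response was not tested.

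A wider set of microRNA hosts, added after the other values were seen, was taken from GENCODE as tested genes whose span holds a hairpin on the same strand. Of 351 hosts 52 (14.8%) were called higher and 28 (7.98%) lower, against 12.9% and 9.16% of all genes, with a median log2 fold change of -0.02. In 35 of them the hairpin lies in an exon, so that its excision would destroy the host transcript, and of these 6 were called higher and 1 lower. The lower one was Vmp1, an autophagy gene whose exon holds Mir21a, with a log2 fold change of -1.81 ± 0.13 (SE; edgeR adjusted p = 1.46e-08).

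The genes around the cluster were examined to see whether its surroundings were lower too. Of 12 tested genes within 250 kb, 3 were called lower and none higher by edgeR (1 higher at an unadjusted p of 0.05, 0 by DESeq2 or limma-voom), with a median log2 fold change of -0.13. Of all genes 9.16% were called lower and 12.9% higher. The nearest was Zswim4, a zinc finger gene on the opposite strand 2.02 kb away by its RefSeq span. Zswim4 measured 4.77, 3.63 and 4.08 CPM in the mutants and 3.79, 4.99 and 4.36 CPM in the wild types. The genotypes overlapped, and its log2 fold change was -0.07 ± 0.17 (SE; edgeR adjusted p = 0.822), with a wide enough error that a small change cannot be seen.

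The 3 genes called lower lay farther off. Nanos3, an RNA-binding protein gene of germ cells 32.0 kb before the cluster, was at 0.857 ± 0.137 CPM in mutants and 1.51 ± 0.159 CPM in wild types, a log2 fold change of -0.82 ± 0.25 (SE; edgeR adjusted p = 0.0233). The call on Nanos3 was lost by DESeq2 (adjusted p = 0.0694) and without mutant replicate 2 (0.0523 by edgeR), mutant replicate 3 (0.0873), wild-type replicate 1 (0.0556), wild-type replicate 3 (0.0539) or batch 1 (0.0716). It was kept with the batch as a block (edgeR adjusted p = 0.00233). D8Ertd738e, 37.3 kb after the cluster, had a log2 fold change of -0.75 ± 0.13 (SE; edgeR adjusted p = 0.000379), and Samd1, which encodes a protein of unmethylated CpG islands and lies 208 kb before it, of -0.71 ± 0.13 (0.000392).

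Between and beyond these genes lay others that were not called. Cc2d1a had a log2 fold change of -0.19, Rfx1 of -0.02, Il27ra of 0.11, Prkaca, the catalytic subunit of protein kinase A, of 0.14, Asf1b of -0.32, Mri1 of 0.08 and Ccdc130 of -0.34. Dcaf15, at 0.36, was not called (edgeR adjusted p = 0.102) but was called higher with the batch as a block (0.00769) and without wild-type replicate 3 (0.0482). The region thus held genes called lower beside genes that were not called.

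**Figure D4:**
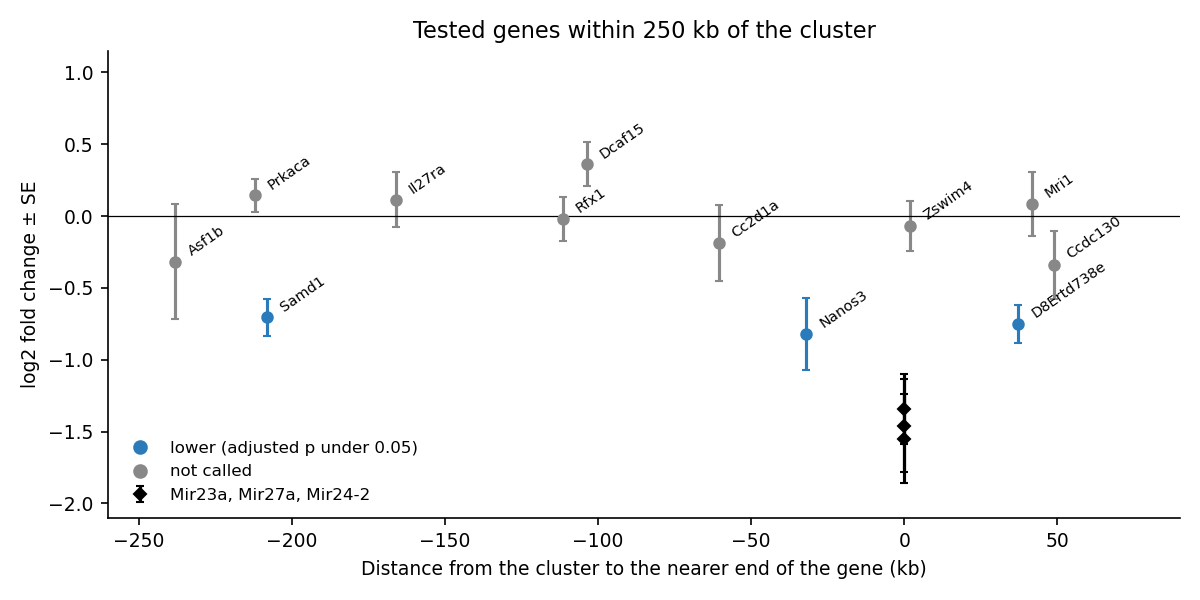
log2 fold change of mutant over wild type ± SE against the distance in kb from the cluster to the nearer end of each of the 12 tested genes within 250 kb, with the 3 members at 0 in black and genes called lower in blue. The members lie from -1.34 to -1.55, and the lowest neighbour, Nanos3, lies at -0.82.

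The microRNA processing genes were examined as a list of 31, of which 28 were tested. 2 (7.14%) were called higher and 2 (7.14%) lower, against 12.9% and 9.16% of all genes, with a median log2 fold change of -0.11. The Microprocessor genes were not called, with Drosha at -0.11 ± 0.25 (SE; edgeR adjusted p = 0.798) and Dgcr8 at -0.52 ± 0.35 (0.323). Dgcr8, which was at 0.775 ± 0.474 CPM in mutants and 1.11 ± 0.200 CPM in wild types, was called lower without mutant replicate 3 (edgeR adjusted p = 0.0156), and its large error leaves its direction unsettled. The later steps were not called either, with log2 fold changes of -0.16 for the exporter Xpo5, -0.07 for Dicer1 and 0.09 for the Argonaute gene Ago2.

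The clearest change in the list was in Ncbp2, the cap-binding subunit of the complex that binds the 5′ end of new transcripts. It was at 1.57 ± 0.328 CPM in mutants and 3.08 ± 0.395 CPM in wild types, a log2 fold change of -0.97 ± 0.22 (SE; edgeR adjusted p = 0.00262), and the call held in every alternative in which Ncbp2 was tested. Its partner Ncbp1 had -0.35 ± 0.19 and did not pass (edgeR adjusted p = 0.227). Hnrnpa1, an RNA-binding protein that assists the cutting of some hairpins, was called lower at -0.54 ± 0.18 (0.0331). Tarbp2, the partner of Dicer1, was called higher at 0.69 ± 0.19 (0.0127), as was Tut7, a uridylyltransferase that marks hairpins, at 0.37 ± 0.11 (0.0213).

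The calls on Hnrnpa1, Tarbp2 and Tut7 were lost under some other settings. With the batch as a block each was kept (edgeR adjusted p = 1.23e-05, 0.000124 and 1.8e-06). With library size alone the adjusted p by edgeR was 0.121 for Hnrnpa1, 0.0955 for Tarbp2 and 0.0764 for Tut7. Without batch 1 it was 0.150, 0.0907 and 0.244. Leaving out 1 library lost Hnrnpa1 without mutant replicate 1 (0.0908) or 2 (0.108) or wild-type replicate 1 (0.0552) or 3 (0.128), and Tarbp2 without mutant replicate 2 (0.136) or wild-type replicate 1 (0.0532) or 2 (0.0655). Tut7 was lost without mutant replicate 1 (0.227), 2 (0.0835) or 3 (0.0520) or wild-type replicate 1 (0.0710) or 2 (0.114). The count of called processing genes was accordingly 1 with library size alone and without batch 1, and Ncbp2 was the gene called in each.

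The transcription factors reported to control the cluster were not called, and none of the 3 passed an unadjusted p of 0.05 in edgeR or was called by DESeq2 or limma-voom. Spi1, the myeloid factor PU.1, had a log2 fold change of -0.24 ± 0.18 (SE; edgeR adjusted p = 0.403). Runx1, a factor of megakaryocytes and also a reported target of miR-27, was at 96.1 ± 1.498 CPM in mutants and 98.9 ± 3.71 CPM in wild types, a log2 fold change of -0.04 ± 0.11 (0.832). Myc, reported to lower miR-23 levels, had -0.06 ± 0.31 (0.912).

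Because the cluster is also expressed in white blood cells, markers of other blood cells were summed in each library. Of 11 neutrophil markers 4 were in the table, all at low levels, and none was called by edgeR (1 higher at an unadjusted p of 0.05), DESeq2 or limma-voom. With the batch as a block edgeR called Csf3r higher (log2 fold change 0.56, adjusted p = 0.00877) and Retnlg lower (-0.42, 0.0336). That fit called 22.0% of all genes higher and 18.0% lower. The 4 neutrophil markers summed to 13.5 to 21.2 CPM in mutants and 12.8 to 18.5 CPM in wild types, and the defining genes Ly6g, Elane, Mpo, Ngp, Camp, Ltf and Cxcr2 were not among the genes analysed. The wild types of batches 1, 2 and 3 had neutrophil sums of 12.8, 18.5 and 17.99 CPM. The part of neutrophils in the level of the cluster was not tested.

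T and NK cell markers (8 of 10 in the table) had none called by edgeR or DESeq2 and 1 called lower by limma-voom, with 1 higher and 2 lower at an unadjusted p of 0.05 in edgeR. The block called Nkg7 higher and Cd8a and Trac lower, in a fit that called 22.0% of all genes higher and 18.0% lower. These markers summed to 23.6 to 26.0 CPM in mutants and 23.6 to 29.5 CPM in wild types. B cell markers (9 of 9 in the table) had 2 called lower, the B cell receptor gene Cd79a and the light chain gene Igkc, and none higher. That is 22.2% lower, against 9.16% of all genes, and 0% higher, against 12.9%. With the batch as a block 6 of 9 were called lower, against 18.0% of all genes in that fit, and all 9 had negative log2 fold changes, from -0.54 to -0.11. The B cell sum was 120, 122 and 166 CPM in the mutants of batches 1, 2 and 3 and 146, 147 and 211 CPM in the wild types. It was thus lower in the mutant of every batch, as the cluster was. Unlike the cluster, which was lowest in batch 3, the B cell sum was highest in batch 3 in both genotypes. Monocyte markers (6 of 8 in the table) had 1 called higher, the lysozyme gene Lyz2, and 1 lower, Ly6c2. Each is 16.7% of the 6, against 12.9% higher and 9.16% lower of all genes. The monocyte sum was 1771 to 2085 CPM in mutants and 1154 to 1592 CPM in wild types, nearly all of it Lyz2. Cx3cr1 and Ms4a7 were not among the genes analysed. The part of B, T and NK cells and monocytes in the level of the cluster was not tested, and in pooled cells fewer cells of a type and less RNA per cell cannot be told apart.

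Red cell markers (6 of 8 in the table, none called by edgeR, DESeq2 or limma-voom or at an unadjusted p of 0.05) separated the batches rather than the genotypes. They summed to 31513 and 35714 CPM in the mutant and wild-type libraries of batch 1, and to 3968 to 4559 CPM in the other 4. Without batch 1 the summed cluster had a log2 fold change of -1.39, against -1.42 with all libraries. The platelet markers (8 of 8 in the table, with Ppbp, Itgb3 and Gp6 called higher and Gp1ba and Gp9 lower) summed to 36530 to 40716 CPM in mutants and 29102 to 35807 CPM in wild types, so markers of the labelled cell type were present at high levels. Of these 8, 37.5% were called higher and 25% lower, against 12.9% and 9.16% of all genes. With the batch as a block 5 were called higher and 2 lower, while that fit called 22.0% of all genes higher and 18.0% lower.

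The downstream side was examined through 51 mRNAs reported as targets of the 3 microRNA families, of which 29 were tested. In the fit on genotype alone 3 were called higher and 1 lower, with a median log2 fold change of -0.04, the same as over all genes. With the preparation batch as a block 5 were called higher and 4 lower, while the same fit called 22.0% of all genes higher and 18.0% lower. The 5 added by the block were Hipk2 (log2 fold change 0.46, blocked edgeR adjusted p = 0.000187), Mtss1 (0.24, 0.00127), the cell cycle inhibitor Cdkn1b (-0.23, 0.00557), the stress factor Nfe2l2 (-0.23, 0.00523) and the nuclear receptor gene Pparg (-0.78, 0.00626), with fold changes from the fit on genotype alone. By family and without the block, 1 of 10 tested miR-23 targets was called higher (2 with the block) and none lower, none of 9 miR-27 targets was called (1 higher and 1 lower at an unadjusted p of 0.05, 0 by DESeq2 or limma-voom, and 1 higher and 2 lower with the block), and 2 of 10 miR-24 targets were called higher and 1 lower. Of the 29 tested targets 10.3% were thus called higher and 3.45% lower in the fit on genotype alone, against 12.9% and 9.16% of all genes.

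Furin, a protein-cleaving enzyme of the secretory pathway and a reported miR-24 target, was at 20.9 ± 2.26 CPM in mutants and 12.8 ± 1.70 CPM in wild types, a log2 fold change of 0.71 ± 0.13 (SE; edgeR adjusted p = 0.000538). H2ax, the histone variant that marks DNA breaks, was at 20.1 ± 1.12 and 12.3 ± 1.74 CPM, a log2 fold change of 0.70 ± 0.13 (0.000471). Xiap, an inhibitor of caspases and a reported miR-23 target, was called higher at 0.44 ± 0.12 (0.0113). The call on Xiap was lost without mutant replicate 1 (edgeR adjusted p = 0.104) or 2 (0.113), without wild-type replicate 2 (0.0519) and without batch 1 (0.0822). It was kept with the batch as a block (1.25e-09).

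Bcl2l11, which encodes the cell death protein BIM and is a reported miR-24 target, was the 1 called lower. It was at 7.72 ± 0.157 CPM in mutants and 14.3 ± 2.70 CPM in wild types, a log2 fold change of -0.89 ± 0.15 (SE; edgeR adjusted p = 0.00018). Its 3′ UTR in GENCODE holds 2 exact 8mer sites of miR-24-3p, a site being a seed match followed by A, while that of Furin holds none. H2ax and Xiap hold 1 miR-23a-3p 8mer site each, H2ax with a miR-24-3p site besides. Seed matches without that A were not counted. Among the called targets, 8mer sites thus occurred in genes that moved in either direction.

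**Figure D5:**
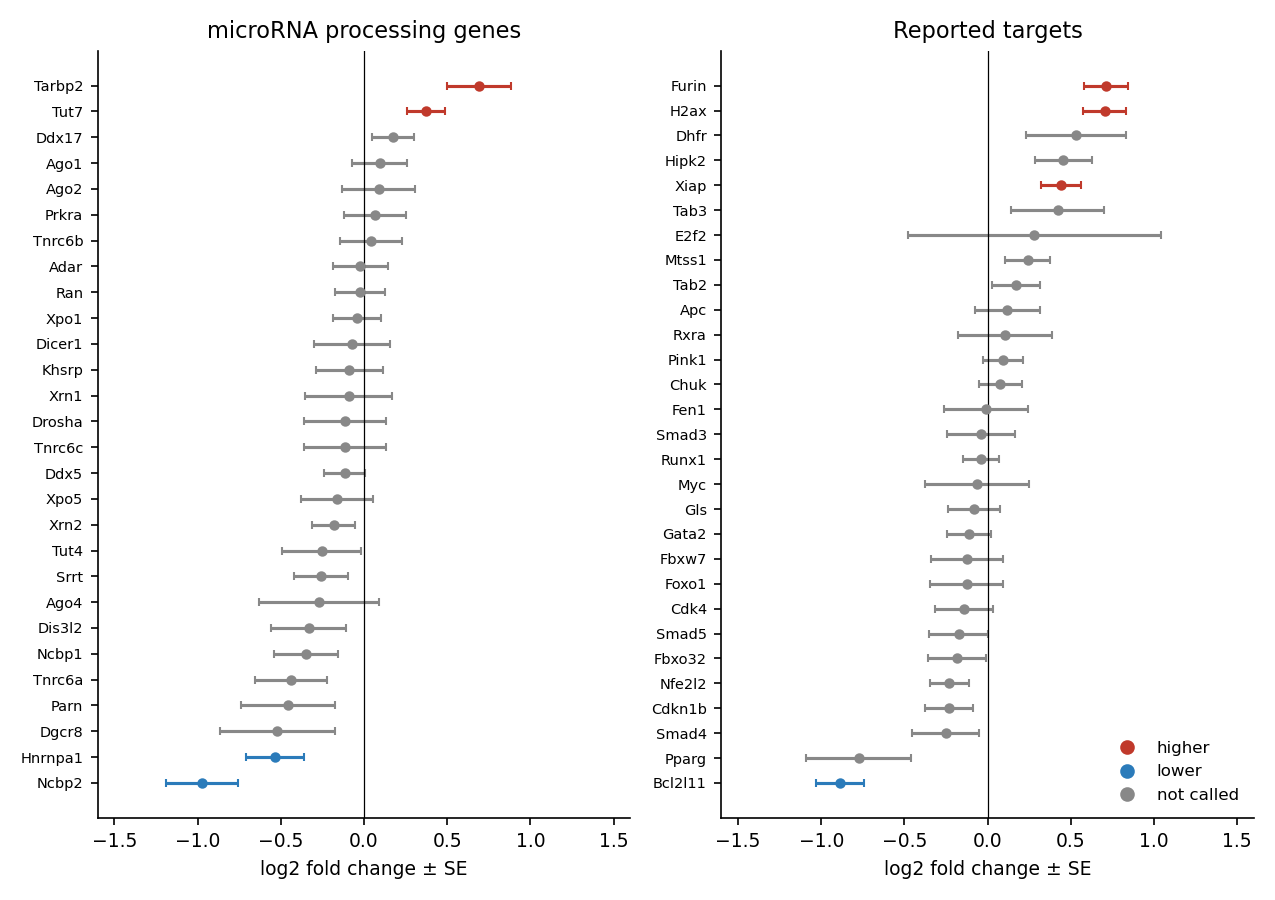
log2 fold change of mutant over wild type ± SE for the 28 tested microRNA processing genes (left) and the 29 tested reported targets (right), with genes called higher in red and lower in blue. Ncbp2 at -0.97 and Bcl2l11 at -0.89 are the lowest of their panels, and most other genes lie within about 0.5 of 0.

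All tested genes with an annotated 3′ UTR were then searched on the transcribed strand for an exact 8mer site, made of the reverse complement of the seed followed by A. The sites were AATGTGAA for miR-23a-3p, ACTGTGAA for miR-27a-3p and CTGAGCCA for miR-24-3p, none of which contains another. Of 9040 genes 648 (7.17%) held the first, 556 (6.15%) the second and 761 (8.42%) the third. Their median log2 fold changes were 0.00, -0.03 and -0.01, against -0.03 over all genes with a 3′ UTR. Of the genes with each site 13.7%, 13.7% and 12.2% were called higher, against 13.4% of all, and 6.48%, 6.12% and 6.04% lower, against 7.20% of all.

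Genes with a site have longer 3′ UTRs, with medians of 2660, 2581 and 2574 bases against 1188 for all, so genes of like UTR length were compared. Among the longest UTRs (the top 25% by length), the median log2 fold change was 0.01 in the 940 genes with any of the 3 sites and 0.01 in the 1318 genes with none. Called higher were 14.0% and 15.9% of them, and called lower 5% and 7.59%. The transcripts with seed sites therefore lay close to those without them at the mRNA level, and no protein was measured.

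The genes whose profile over the 6 libraries was most like that of the summed cluster were H4c1, H2ac6, Hexim2, 5830432E09Rik and A630001O12Rik. Likeness was the root mean square difference of log2 (CPM + 0.5), each gene centred on its own mean, among the 6286 genes whose mean CPM reaches the cluster's divided by 4. It was 0.20 for H4c1 and H2ac6, 0.22 for the other 3, and 0.79 at the median of all ranked genes. H4c1 and H2ac6 are histone genes whose reads may be shared with near-identical copies, and Hexim2 encodes an inhibitor of transcription elongation.

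Hexim2 measured 28.4, 30.3 and 21.9 CPM in the mutants and 77.8, 83.7 and 60.8 CPM in the wild types of batches 1, 2 and 3. Like the cluster, it was highest in batch 2 and lowest in batch 3 in both genotypes, and its log2 fold change was -1.46. H4c1 had a log2 fold change of -1.29, H2ac6 of -1.43, 5830432E09Rik of -1.29 and A630001O12Rik of -1.43. These 5 genes were picked from the same libraries for their likeness, so their fold changes are given with no test.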

How the data were processed

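Purified platelets of 3 Nxf1+/C587R and 3 wild-type pools were sequenced as polyA RNA. The authors deposited whole-number counts per Entrez gene, with gene lengths, per the file headers. The tools were CASAVA 1.8.2, Subread and featureCounts and the build mm10, per the submitters' processing notes. The sources used here do not give their settings, the read length or the handling of multi-mapped reads. Totals were 25189231 to 29421549 counts per library. RefSeq (GRCm38.p6) named 9636 of 9822 genes, and biotypes and sequences come from it. UTRs, hosts and overlaps come from GENCODE.

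Counts were tested with edgeR 4.0.16 (R 4.3.3), after TMM scaling, by a robust quasi-likelihood fit on genotype, two-sided. filterByExpr removed 0 genes. SE is the absolute log2 fold change divided by the square root of F. Counting errors of log2 ratios assume Poisson counts. Fits were tested on simulated data. Tried besides were 3 scalings, limma-voom 3.58.1, DESeq2 1.42.0, a mean CPM of at least 5, the batch as a block and each library left out. Leaving out batch 1 was added after seeing the data. Hairpins were folded with RNAfold 2.7.2.

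The labels give each library a batch, shared by 1 mutant and 1 wild-type pool, and the series' design text says that pools of both genotypes were prepared on 3 days. The batch therefore pairs libraries. Across genes, libraries of a batch deviated together from their group means (correlations of 0.52, 0.35 and 0.55). Those of different batches correlated negatively (at most -0.036). Centring on group means forces this on average once libraries of a batch correlate positively, so the negative values add no support. No 2 libraries of a genotype agreed within sampling noise (mean chi-square per gene at least 14.5). P-values of the fit on genotype alone measure the spread between pools of a genotype, which includes differences between batches. Those with the batch as a block measure the spread left after batch differences are taken out.

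The members and gene lists were chosen with earlier results of these data known. Named were the members, other microRNA genes, all neighbours and regulators, 5 processing genes with every called one, called targets with Runx1, the 5 genes most like the cluster and the 2 beside its weakest member in fold change. Ncbp1, Vmp1, the targets and markers called with the block alone and the marker genes were named after their values were seen. Some marker genes are not reported here by name.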

Additional observations from a re-analysis of the deposited data

How the results depend on the processing

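All 4 log2 fold changes of the cluster (the 3 genes and their sum) stayed negative in every alternative that gave a value. With 1 library left out, Mir23a ranged from -1.73 to -1.03, Mir27a from -1.77 to -1.12, Mir24-2 from -1.97 (without mutant replicate 2) to -1.39, and the sum from -1.74 to -1.14. With the preparation batch as a replicate block the values were -1.43, -1.36, -1.56 and -1.43. A minimum mean CPM of 5 leaves no member tested, and the sum was not run with it, with DESeq2 or with limma-voom. The block called 9 of the reported targets in place of 4. It also moved the calls among platelet, B cell, neutrophil and T and NK cell markers and miR-23 and miR-27 targets, as given beside each. Calls among red cell markers moved as well, and those of the other microRNA genes, processing genes and neighbours by at most 1.5 times. Over all genes 2166 were called, against 3929 with the block, 1197 without batch 1 and 1382 without mutant replicate 2. A minimum mean CPM of 5 left 1 called microRNA gene of 3 tested and 2 called processing genes of 9 tested, since fewer genes pass it. Called processing genes numbered 1 with library size alone, 1 without batch 1 and 1 to 5 with 1 library left out, against 4 with all; the cause was not tested. Of 19 called genes named in the text by rule, 13 kept their call in all 14 alternatives in which they were tested. These 13 include the 5 genes most like the cluster. Those were picked from the same libraries for sharing its fall, so their kept calls support nothing. Of the 3 members depth limits Mir24-2 most, with 9 to 39 counts per library.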
